A study of Mus musculus with 6 samples.

Results

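Gene expression in graft-reactive CD4+ T cells labelled as lacking Irf4 was compared with that in wild-type (WT) cells of the same receptor specificity, on 4 of the 6 arrays of the series, 2 for either genotype, all from recipients given rat IgG. The cells are TEa cells, CD4+ T cells with a transgenic T cell receptor (Vα2+Vβ6+), from C57BL/6 donors that carry CD45.2. They were transferred on day -1 into B6.SJL mice that carry CD45.1. These recipients were given a Balb/c heart on day 0, and the TEa cells were sorted from their spleens on day 6 for single-colour Agilent mouse arrays. WT IgG recipients received WT cells and are labelled as treated with rat IgG, at a dose that the labels do not give. Irf4 KO IgG recipients received cells labelled Irf4-/- and 400 µg rat IgG on days 0, 3 and 5. In the remaining group, recipients of cells labelled Irf4-/- received 200 µg of an antibody to PD-L1 and 200 µg of an antibody to CTLA-4 on the same days. These blockade arrays enter the estimate of the spread, and their values are given beside those of the compared groups. Each group was measured in 2 independent experiments with 1 array each, here array 1 and array 2 (the one labelled as a repeat). How the Irf4 deletion was made, and whether several mice were pooled for an array, is not given in the sources used here. All groups share the CD45.1+ recipient, and no depletion of its own cells is described.

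Genes were taken if their probe averaged 8 or more in log2 intensity (256 on the linear scale) over the 6 arrays, because weak probes read higher on both Irf4 KO IgG arrays. This left 8582 bright genes, of which 6708 have a symbol. Levels below are log2 intensities after quantile normalisation among bright probes, so a fold change is relative to the other bright genes, and levels of different genes are not compared. A gene is said to have risen or fallen if its limma adjusted p was at or under 0.05.

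IRF4 is a transcription factor of the interferon regulatory factor family that T cells make after T cell receptor signalling, in amounts that follow the strength of the signal. It binds DNA weakly alone and is recruited with BATF and JUN proteins to composite AP-1 and IRF elements, or with Ets-family partners to Ets and IRF elements. In CD4+ T cells it is known for its part in clonal expansion, metabolic reprogramming and effector differentiation, and its loss is associated with a dysfunctional state and with long graft survival.

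The defining RNAs of CD4+ T cells were bright on all arrays, with 12 of 12 measured markers well above background on each. Both Irf4 KO IgG arrays stood apart in their weak signals. There, 66.0% and 75.2% of probes were well above background, against 34.5% to 40.5% on the other 4 arrays. Of the 31515 probes that were dim on both WT arrays, the 99th percentile of intensity was 255 and 536 on Irf4 KO IgG arrays 1 and 2 and at most 37.5 elsewhere. Markers of B cells, erythroid cells and neutrophils summed higher on both of them than on the WT arrays, and highest on array 2. So did those of plasma cells, of mast cells and basophils, and of monocytes and macrophages. The monocyte and macrophage markers summed to 1876 and 1297 in WT, 4805 and 7224 in Irf4 KO IgG, and 1307 and 1349 in blockade cells. Without Csf1r they summed to 646 and 366, then 3510 and 6047, then 251 and 357. The intensities of 16 B cell markers summed to 1062 and 1531 in WT, 2378 and 9613 on Irf4 KO IgG arrays 1 and 2, and 1327 and 1245 in blockade cells. That of 15 erythroid and platelet markers was 349 and 1412, then 2995 and 101425, then 21031 and 12527. That of 12 neutrophil markers was 6976 and 13080, then 17758 and 81477, then 7781 and 9948. Single genes carried much of some sums. Without Pou2af1 the B cell markers summed to 281 and 347, then 1501 and 7526, then 499.5 and 502.5. Without Csf3r, which read 14721 and 8536 on Irf4 KO IgG arrays 1 and 2, the neutrophil markers summed to 809 and 1050, then 3037 and 72940, then 1197 and 5311. Irf4 KO IgG array 2 was thus above array 1 by 5.01-fold for B cell markers without Pou2af1 and 33.9-fold for erythroid markers, and by 1.65-fold for the markers of CD4 T cells. Dendritic cell markers summed higher on Irf4 KO IgG array 1 than on array 2, at 27351 and 19707. Without Siglech they summed to 3558 and 6849 there, and to 5310 and 3323 in WT. Most of that remainder was Bst2, at 3236 and 5953 in Irf4 KO IgG and 5247 and 3274 in WT cells. Of the 12 dendritic cell markers, 8 and 9 were well above background on Irf4 KO IgG arrays 1 and 2, against 3 and 2 on the WT arrays. Those of endothelium and stroma were highest on WT array 1, at 1761. Without Dcn they summed to 360 and 262 in WT, and to 598 and 1078 in Irf4 KO IgG cells. In a sorted bulk sample, fewer cells of a type and less RNA per cell cannot be told apart.

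**Figure D1:**
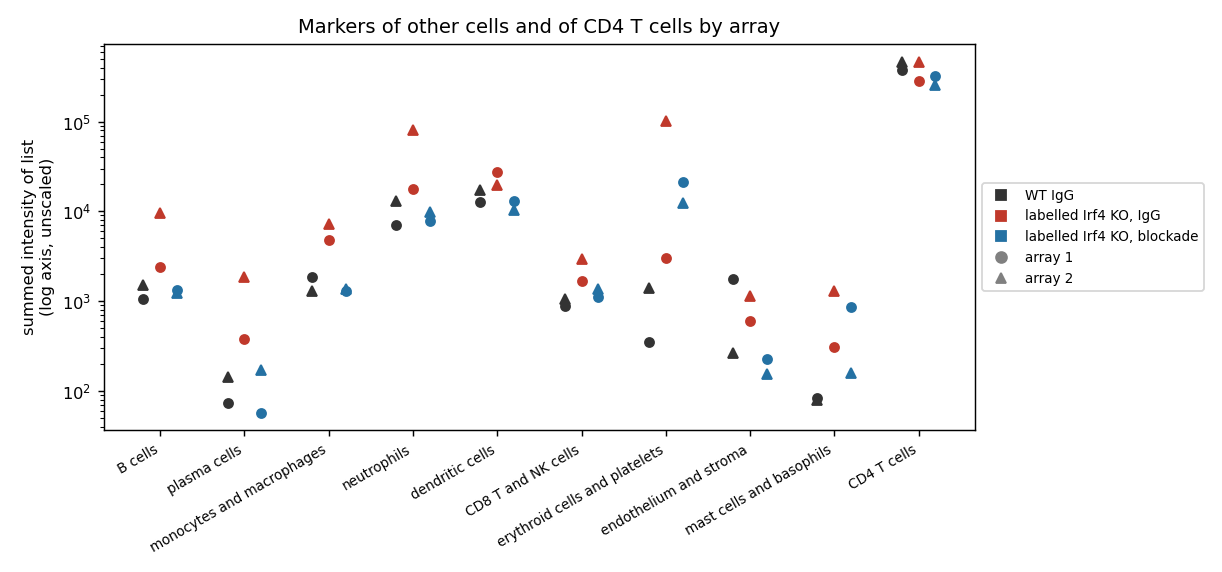
Summed intensity of the measured markers of each cell type on the 6 arrays, on a log axis and without scaling between arrays. Circles are array 1 and triangles array 2 of each group. Erythroid markers on Irf4 KO IgG array 2 summed to 101425, against 2995 on array 1, while the markers of CD4 T cells lay between 259209 and 467496 on all arrays.

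Irf4 itself (gene identifier 16364) read higher, not lower, on the arrays labelled Irf4 KO. The brighter of its 2 probes read an intensity of 673 and 1068 in WT cells, 2128 and 3073 in Irf4 KO IgG cells, and 2071 and 1703 in blockade cells. Its second probe was dimmer, at 73.6 and 80.3, 226 and 221, and 218 and 163 in the same order. The normalised level of the brighter probe was 9.71 ± 0.15 (SD, n = 2) in WT and 11.15 ± 0.10 (SD, n = 2) in Irf4 KO IgG cells, so its log2 fold change was 1.44 with an SE of 0.13 (limma adjusted p = 0.0178). The position of the probes relative to the deletion is not given in the sources used here, so this signal checks nothing about the deletion, and the group is named by its label throughout. Of the 50 genes on each side of Irf4 on chromosome 13, 30 were bright, and 0 of these passed in limma (their median log2 fold change was -0.05).

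Between cells labelled Irf4 KO with IgG and WT cells, 98 genes rose and 70 fell, which is 1.96% of the 8582 tested (1.14% higher and 0.816% lower). At an unadjusted p under 0.05, 905 genes (10.5%) were higher and 1099 (12.8%) lower. The groups did not overlap for 4491 genes (52.3%), and for all 168 genes that passed. The risen genes included transcription factors (Eomes, Ikzf2, Tox, Bach2, Irf8), inhibitors of kinase signalling (Spry1, Dusp1), receptors (Tnfrsf9, Nrp1, Crtam, Ramp1), MHC class II genes (H2-Ab1, H2-Eb1, H2-Ob) and the secreted peptide precursor Penk. The fallen genes included adhesion and migration molecules (Itgb1, Cd44, Cxcr3, Cxcr5, Adam19), actin-associated proteins (Myo1f, Lsp1), costimulatory and adaptor molecules (Icos, Sh2d1a, Trat1), replication-dependent histones (H2bc18, H3c13) and enzymes (Cyp2s1, Glrx, Gcat). Log2 fold changes ran from 0.70 to 4.73 among the risen genes and from -0.67 to -5.57 among the fallen ones.

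The number of arrays limits the precision, and p-values measure the spread between arrays of 2 experiments a group. Fewer genes passed in either direction whenever 1 of the 4 compared arrays was left out. All 168 genes kept their direction in these fits, which was fixed in advance because their groups do not overlap. The minimum on brightness also acts on the counts, because it was set over all 6 arrays. A gene dim in WT cells could enter only by being bright elsewhere, and 40 of the 98 risen genes came from the 204 genes whose mean WT level was at or under 8 (19.6%). The other 58 came from 8378 genes with a WT level over 8 (0.692%). Scaling all probes to the 75th percentile of each array lowered bright genes in general, with a median log2 fold change of -1.05 in place of -0.02. On that scale 78 of the 98 risen genes and 70 of the 70 fallen ones kept their direction.

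**Figure D2:**
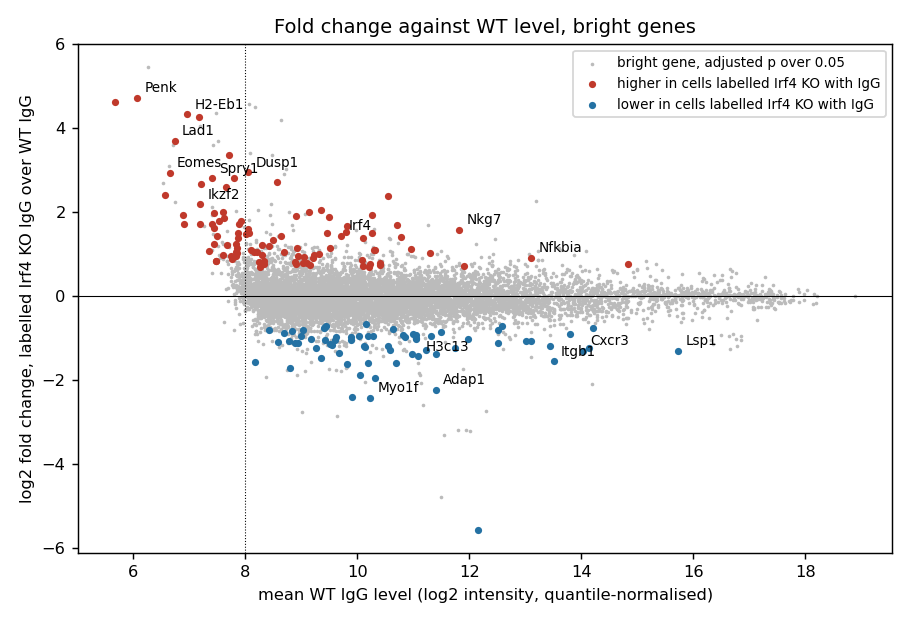
Change from WT IgG to Irf4 KO IgG in log2 units (vertical axis) against the mean WT level in log2 intensity (horizontal axis) for the bright genes, with genes that passed in colour. The dotted line marks the WT level of 8, left of which 40 of the 98 risen genes lie and no fallen one.

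The largest rise was that of Penk, which encodes the opioid peptide precursor proenkephalin. Its level was 6.15 and 5.99 in WT, 10.19 and 11.41 in Irf4 KO IgG and 11.24 and 10.81 in blockade cells, with a log2 fold change of 4.73 and an SE of 0.40 (limma adjusted p = 0.0156). Fam160a1 read 5.83 and 5.53, then 10.21 and 10.42, then 9.25 and 9.26 (4.64, SE 0.15, limma adjusted p = 0.0014). The nearest arrays of the groups lay 4.04 log2 units apart for Penk and 4.37 for Fam160a1, and Fam160a1 was well above background on 1 of the 2 WT arrays. Lad1, which encodes the basement membrane protein ladinin, read 6.52 and 6.96 in WT, 10.15 and 10.74 in Irf4 KO IgG and 9.98 and 10.69 in blockade cells (3.71, SE 0.32, limma adjusted p = 0.0164). Ramp1, a subunit of the receptor for the neuropeptide CGRP, rose by 2.71 (SE 0.43, limma adjusted p = 0.0491). Its arrays spread widely, with levels of 9.01 and 8.13 in WT and 10.79 and 11.77 in Irf4 KO IgG cells. Cul7, a scaffold of ubiquitin ligases (2.68, SE 0.30), and the receptor tyrosine phosphatase Ptprs (2.01, SE 0.15) rose too, at limma adjusted p of 0.0249 and 0.0143. Fam160a1 passed in 17 of 17 other settings in which it was tested, Ptprs in 16 of 18, Penk in 15 of 18 and Ramp1 in 9 of 18.

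**Figure D3:**
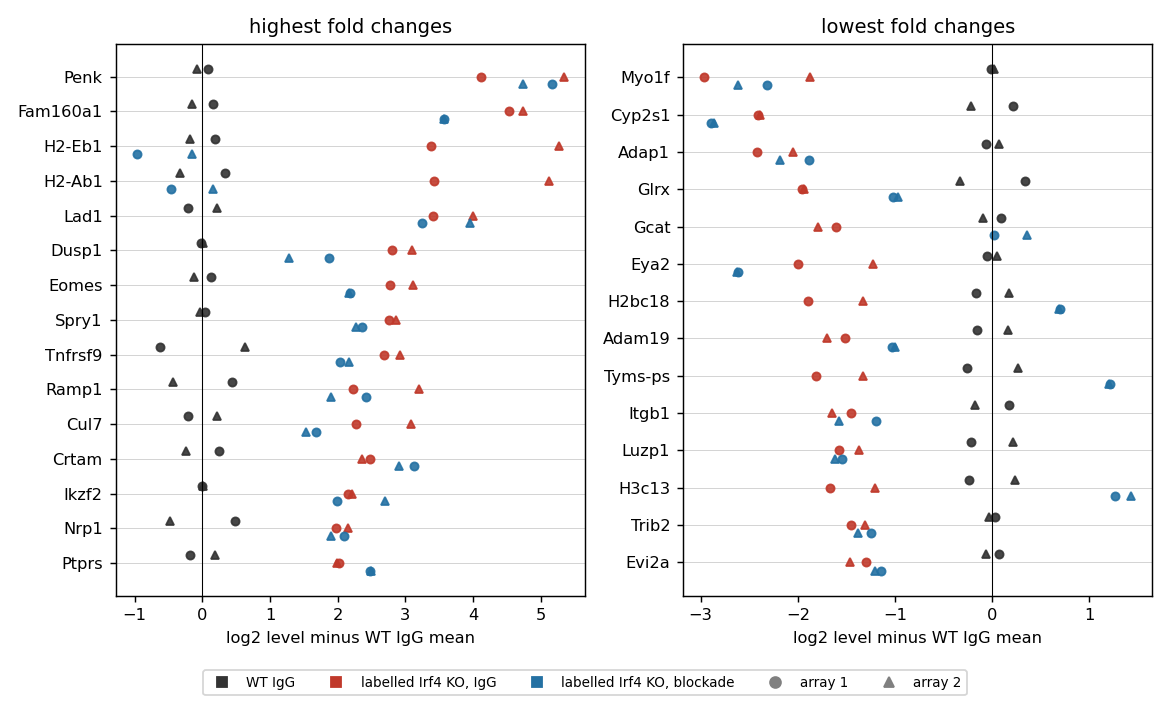
Level on each array minus the mean of the WT arrays, in log2 units, for the 15 genes with the highest and 14 of the 15 with the lowest log2 fold change. Colours are the groups, circles array 1 and triangles array 2. For H2-Eb1 and H2-Ab1 the blockade arrays lie beside the WT arrays, and for H2bc18, Tyms-ps and H3c13 they lie above them.

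Among the fallen genes, Myo1f, a class I myosin of leukocytes, read 10.22 and 10.25 in WT and 7.27 and 8.36 in Irf4 KO IgG cells (-2.42, SE 0.35, limma adjusted p = 0.0465), and 7.92 and 7.62 on the blockade arrays. Cyp2s1, a cytochrome P450 enzyme, read 10.12 and 9.69, then 7.49 and 7.51, then 7.01 and 7.04 (-2.40, SE 0.17, limma adjusted p = 0.0128). Adap1, a GTPase-activating protein for Arf proteins, read 11.34 and 11.47, then 8.99 and 9.36, then 9.53 and 9.22 (-2.23, SE 0.18, limma adjusted p = 0.0156). The nearest arrays lay 1.86 log2 units apart for Myo1f, 2.18 for Cyp2s1 and 1.98 for Adap1, and the blockade arrays were low as well. Glrx, the thiol reductase glutaredoxin, fell from 10.65 and 9.98 to 8.36 and 8.37 (-1.95, SE 0.22, limma adjusted p = 0.028). Gcat, a mitochondrial enzyme of threonine breakdown, read 8.89 and 8.70 in WT, 7.18 and 6.999 in Irf4 KO IgG and 8.81 and 9.15 in blockade cells (-1.70, SE 0.16, limma adjusted p = 0.0194). The blockade arrays lay at the WT level for Gcat, unlike for Glrx, where they read 9.30 and 9.35. The pseudokinase gene Trib2 (-1.38, SE 0.12), the membrane protein gene Evi2a (-1.38, SE 0.12) and the leucine zipper protein gene Luzp1 (-1.47, SE 0.18) fell at limma adjusted p of 0.0164, 0.0178 and 0.0293. The lowest value belonged to a transcript without a symbol, ENSMUST00000109428, with intensities of 4002 and 5971 in WT, 181 and 182 in Irf4 KO IgG and 134 and 76.7 in blockade cells.

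Of 42 bright T cell transcription factors, 6 rose and 2 fell (1.14% and 0.816% of all bright genes did). At an unadjusted p under 0.05, 18 were higher and 3 lower (10.5% and 12.8% of all bright genes). The risen ones include Irf4 itself, and Eomes and Ikzf2, which were under the minimum of 8 in WT cells and passed it through the other arrays, so the count supports no direction of the list. Of the 40 members over 8 in WT cells, 4 rose and 2 fell. The median log2 fold change was 0.31, against -0.02 for all bright genes, and it was -0.84 with the 75th percentile, where the median of all was -1.05. Eomes, a T-box factor of cytotoxic and memory T cells, read 6.78 and 6.52 in WT, 9.42 and 9.77 in Irf4 KO IgG and 8.84 and 8.82 in blockade cells (2.94, SE 0.16, limma adjusted p = 0.00928). It passed in 17 of 17 other settings in which it was tested. Ikzf2, which encodes Helios, a factor of regulatory and chronically stimulated T cells, read 7.18 and 7.202, then 9.35 and 9.41, then 9.18 and 9.90 (2.19, SE 0.24, limma adjusted p = 0.0246). Tox, a factor of chronically stimulated T cells, rose less, from 10.21 and 10.43 to 11.35 and 11.51 (1.11, SE 0.13, limma adjusted p = 0.0293), and was 0.03 with the 75th percentile. Myb, a factor of progenitors and memory T cells, reached 1.59 (SE 0.27) but did not pass (limma adjusted p = 0.0569).

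Further members of this list went both ways. Irf8, another interferon regulatory factor, read 9.61 and 9.30 in WT, 10.70 and 11.21 in Irf4 KO IgG and 11.13 and 11.23 in blockade cells (1.496, SE 0.21, limma adjusted p = 0.0419). Bach2, a repressor that keeps T cells from effector fates, rose by 1.51 (SE 0.24, limma adjusted p = 0.0491), with its WT arrays spread from 7.74 to 8.40. Irf8 is also expressed by B cells and myeloid cells, whose markers read higher on both Irf4 KO IgG arrays. Their part in this rise was not tested. Runx3, a factor of effector T cells, fell from 9.84 and 9.95 to 8.85 and 8.85 (-1.04, SE 0.11, limma adjusted p = 0.0223), with blockade arrays at 8.34 and 8.36. Eya2, a transcriptional co-activator and phosphatase, fell from 9.77 and 9.87 to 7.82 and 8.60 (-1.61, SE 0.25, limma adjusted p = 0.0491). Runx3 thus had the tighter arrays, while Eya2 differed by 0.77 between the Irf4 KO IgG arrays.

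Of 14 bright genes of regulatory and anergic T cells 4 rose (Ikzf2, Tox, Tnfrsf9 and Nrp1), 0 fell and 14 had a positive log2 fold change (47.6% of all bright genes did). The median was 0.93, it lay between 0.85 and 1.16 when 1 array was left out, and it was -0.24 with the 75th percentile, where the median of all bright genes was -1.05. Members of this list were known to be higher in these samples when it was drawn up, so the counts and the median are a description. Of the 11 members over 8 in WT cells, which leave out Ikzf2 and Tnfrsf9, 2 rose and the median was 0.70. Tnfrsf9, the costimulatory receptor 4-1BB, read 7.17 and 8.42 in WT, 10.48 and 10.72 in Irf4 KO IgG and 9.83 and 9.96 in blockade cells (2.81, SE 0.39, limma adjusted p = 0.043). Nrp1, the semaphorin and VEGF receptor neuropilin-1, read 9.84 and 8.88, then 11.33 and 11.51, then 11.45 and 11.26 (2.06, SE 0.31, limma adjusted p = 0.0491). The WT arrays lay 1.25 log2 units apart for Tnfrsf9 and 0.96 for Nrp1, and their calls held in 11 of 18 and 10 of 18 other settings. Among members that did not pass at the adjusted threshold, Gpr83, a receptor of regulatory T cells, stood at 1.56 in log2 units, the costimulatory receptor Tnfrsf4 1.35, and Izumo1r, the folate receptor family member of anergic cells, 0.62.

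Costimulatory and adaptor molecules went both ways. In the list of TNF receptor family and costimulatory genes, 1 of 15 bright members rose (Tnfrsf9) and 2 fell, Icos and Sh2d1a. Of the 14 members with a mean over 8 in WT cells, which leave out Tnfrsf9, 0 rose and 2 fell. Icos, the costimulatory receptor of follicular helper and effector T cells, read 13.34 and 13.54 in WT, 12.23 and 12.28 in Irf4 KO IgG and 12.37 and 12.08 in blockade cells (-1.19, SE 0.15, limma adjusted p = 0.0332). Sh2d1a, which encodes the adaptor SAP of SLAM family receptors, fell by 1.02 on the log2 scale (SE 0.16, limma adjusted p = 0.0491). Co-inhibitory receptors and ligands had 0 of 7 bright members past the limma threshold and 1 at an unadjusted p under 0.05, Cd200 (0.87, SE 0.17, limma adjusted p = 0.0676). Their median was 0.16. The cytokine genes Tnf and Lta went opposite ways, with Tnf down from 8.84 and 9.05 to 7.75 and 7.90 (-1.12, SE 0.13, limma adjusted p = 0.0287) and Lta, lymphotoxin alpha, up from 8.33 and 8.09 to 9.09 and 9.44 (1.05, SE 0.16, limma adjusted p = 0.0491). With Penk they were the 3 of 11 bright members of the cytokine list that passed. Penk was under the minimum of 8 in WT cells and passed it through the other arrays. Of the 9 members over 8 in WT cells, 1 rose and 1 fell. Among cytokine receptors and their Jak and Stat kinases and factors, 0 of 32 bright members passed in limma. At an unadjusted p under 0.05, 8 were higher and 1 lower (10.5% and 12.8% of all bright genes). Il4ra, the interleukin-4 receptor (0.79, SE 0.15), and the kinase gene Jak2 (0.70, SE 0.16) came nearest, and both were negative with the 75th percentile (-0.31 and -0.24).

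Of the signalling genes, Spry1 and Dusp1, inhibitors of MAP kinase signalling, rose. Spry1, a Sprouty protein that restrains the Ras and Erk pathway, read 7.44 and 7.37 in WT, 10.16 and 10.26 in Irf4 KO IgG and 9.76 and 9.68 in blockade cells (2.81, SE 0.11, limma adjusted p = 0.00223). Dusp1, a phosphatase that inactivates MAP kinases, read 8.04 and 8.07, then 10.87 and 11.16, then 9.94 and 9.34 (2.96, SE 0.22, limma adjusted p = 0.0143). These were the 2 of 17 bright members of the MAP kinase feedback list that rose, 0 fell, and the list's median was -0.02, equal to that of all bright genes. Spry1 was under the minimum of 8 in WT cells and passed it through the other arrays, so the count is a description. Of the 16 members over 8 in WT cells, 1 rose. Spry1 passed in 18 of 18 other settings and Dusp1 in 16 of 18. In the receptor signalling list, 1 of 49 bright members rose and 1 fell (1.14% and 0.816% of all bright genes did). At an unadjusted p under 0.05, 8 were higher and 7 lower (10.5% and 12.8% of all bright genes). The risen gene was Txk, a Tec family kinase (0.77, SE 0.11, limma adjusted p = 0.045; -0.29 with the 75th percentile), and the fallen one Trat1, a transmembrane adaptor of the receptor complex (-1.16, SE 0.18, limma adjusted p = 0.0491). Itpr1, the channel through which inositol trisphosphate releases stored calcium, fell from 9.49 and 9.75 to 8.59 and 8.67 (-0.99, SE 0.14, limma adjusted p = 0.0419). P2rx7, the ATP-gated cation channel, fell from 11.76 and 11.74 to 10.50 and 10.51 (-1.25, SE 0.12, limma adjusted p = 0.0213).

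Of 22 bright NF-kappaB pathway genes, 2 rose and 0 fell, with 10 higher and 1 lower at an unadjusted p under 0.05. Of all bright genes, 1.14% rose, and 10.5% were higher and 12.8% lower at that p. The list's median was 0.37 (-0.66 with the 75th percentile, where that of all bright genes was -1.05). Nfkbia, which encodes the inhibitor IκBα, read 13.17 and 13.04 in WT, 14.03 and 14.02 in Irf4 KO IgG and 13.18 and 13.18 in blockade cells (0.92, SE 0.11, limma adjusted p = 0.0296; -0.39 with the 75th percentile). The blockade arrays lay at the WT level for this gene. Nfkb2, a subunit of the non-canonical pathway, rose by 0.74 (SE 0.12, limma adjusted p = 0.0491; -0.33 with the 75th percentile). Immediate early genes, which respond within minutes to stimulation and also to cell handling, had 1 of 21 bright members risen (Dusp1), 9 higher and 0 lower at an unadjusted p under 0.05, and a median of 0.46 (-0.65 with the 75th percentile). This median was 0.26 without Irf4 KO IgG array 1 and 0.67 without array 2. Members that did not pass at the adjusted threshold included Egr2 (1.08), Cd69 (1.09), Btg1 (0.64), Jund (0.73) and Junb (0.62). Whether handling differed between the sorts is not given in the sources used here, and its part in these values was not tested.

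Adhesion and migration genes carried several of the falls. In the integrin and adhesion list, 1 of 34 bright members rose (Crtam) and 3 fell (Adam19, Itgb1 and Cd44). Of all bright genes, 1.14% rose and 0.816% fell. At an unadjusted p under 0.05, 6 members were higher and 8 lower (10.5% and 12.8% of all bright genes). The list's median was -0.24, and it lay between -0.13 and -0.10 when 1 array was left out. Itgb1, the common beta chain of the VLA integrins, read 13.69 and 13.33 in WT, 12.06 and 11.86 in Irf4 KO IgG and 12.32 and 11.93 in blockade cells (-1.55, SE 0.19, limma adjusted p = 0.0332). Cd44, the hyaluronan receptor of activated T cells, read 10.41 and 10.15, then 9.27 and 9.38, then 9.31 and 9.30 (-0.95, SE 0.13, limma adjusted p = 0.0419). Adam19, a membrane metalloprotease, read 10.53 and 10.85, then 9.18 and 8.99, then 9.65 and 9.69 (-1.61, SE 0.15, limma adjusted p = 0.0194). The nearest arrays of the groups were 1.28 apart for Itgb1, 0.77 for Cd44 and 1.35 for Adam19. Crtam, an adhesion receptor of cytotoxic CD4+ T cells, rose from 6.81 and 6.33 to 9.04 and 8.94 (2.42, SE 0.19, limma adjusted p = 0.0156). It was under the minimum of 8 in WT cells and passed it through the other arrays. Of the 31 members over 8 in WT cells, 0 rose and 3 fell. Alcam, a ligand of CD6, stood at 1.28 in log2 units and did not pass at the adjusted threshold.

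Of 6 bright chemokine and egress receptors, 2 fell and 0 rose (0.816% and 1.14% of all bright genes did). Cxcr3, the receptor that draws T cells to inflamed tissue, read 14.03 on both WT arrays, 12.69 and 12.77 in Irf4 KO IgG and 12.96 and 12.76 in blockade cells (-1.30, SE 0.12, limma adjusted p = 0.0194). Cxcr5, the receptor for B cell follicles, fell from 12.99 and 13.20 to 11.86 and 12.21 (-1.06, SE 0.16, limma adjusted p = 0.0491), with blockade arrays at 11.33 and 11.22. Actin and myosin genes had 1 of 55 bright members risen and 2 fallen, against 1.14% and 0.816% of all bright genes. At an unadjusted p under 0.05, 4 were higher and 14 lower (10.5% and 12.8% of all bright genes), with a median of -0.16. Besides Myo1f, the fallen gene was Lsp1, an F-actin binding protein of leukocytes, which read 15.67 and 15.80 in WT and 14.39 and 14.47 in Irf4 KO IgG cells (-1.30, SE 0.13, limma adjusted p = 0.0223). The risen one was Fmnl1, a formin (0.70, SE 0.11, limma adjusted p = 0.0491; -0.13 with the 75th percentile). Members near the threshold that did not pass were the bundling protein gene Lcp1 (-0.75), the crosslinker gene Flna (-0.64) and Cotl1 (-0.51).

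Replication-dependent histones and mitosis genes had the lowest medians of the lists with at least 10 bright members. The histones, the core and linker histones made in S phase, had 2 of 30 bright members fallen and 0 risen, 23 lower at an unadjusted p under 0.05 (12.8% of all bright genes were), and 29 with a negative log2 fold change. The median was -0.9954, against -0.02 for all bright genes. It was -0.57 without Irf4 KO IgG array 1 and -1.41 without Irf4 KO IgG array 2. H2bc18 read 10.03 and 10.36 in WT, 8.30 and 8.87 in Irf4 KO IgG and 10.89 on both blockade arrays (-1.61, SE 0.22, limma adjusted p = 0.0419). H3c13 read 10.85 and 11.32, then 9.42 and 9.88, then 12.35 and 12.52 (-1.44, SE 0.23, limma adjusted p = 0.0491). The blockade arrays were thus above the WT arrays for both. Other members that did not pass at the adjusted threshold were H2ac4 (-2.09), H1f5 (-1.84) and H3c3 (-1.27). Histone genes are near-identical copies, so a probe may read several of them and the members are not independent.

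Mitosis and cytokinesis genes had 0 of 35 bright members past the limma threshold and a median of -0.89. At an unadjusted p under 0.05, 15 were lower and 2 higher (12.8% and 10.5% of all bright genes). The nearest to the threshold were Prc1, which bundles spindle microtubules (-1.07, SE 0.22, limma adjusted p = 0.0751), and Racgap1, a GTPase-activating protein of the central spindle (-1.21, SE 0.27, limma adjusted p = 0.0832). The level of Prc1 was 9.03 and 9.48 in WT, 7.96 and 8.43 in Irf4 KO IgG and 9.87 and 9.79 in blockade cells. The list's median depended on single arrays, at -1.28 and -0.37 when WT array 1 or 2 was left out, and at -0.33 and -1.30 when Irf4 KO IgG array 1 or 2 was. Array 1 of both groups lay in slide row 2 and array 2 of both in slide row 1. Within these rows the median difference of the members was -0.82 and -0.75. DNA replication enzymes had 0 of 33 bright members past the limma threshold, 4 higher and 0 lower at an unadjusted p under 0.05 and a median of 0.02. In nucleotide synthesis 0 of 25 passed, with 2 higher and 6 lower at an unadjusted p under 0.05 and a median of -0.21. The thymidylate synthase gene Tyms stood at -0.94 in log2 units (SE 0.25, limma adjusted p = 0.118), and its pseudogene Tyms-ps, whose probe may read Tyms itself, fell by 1.57 on the log2 scale (SE 0.24, limma adjusted p = 0.0487). Tyms-ps read 7.92 and 8.45 in WT, 6.37 and 6.85 in Irf4 KO IgG and 9.39 and 9.38 in blockade cells.

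**Figure D4:**
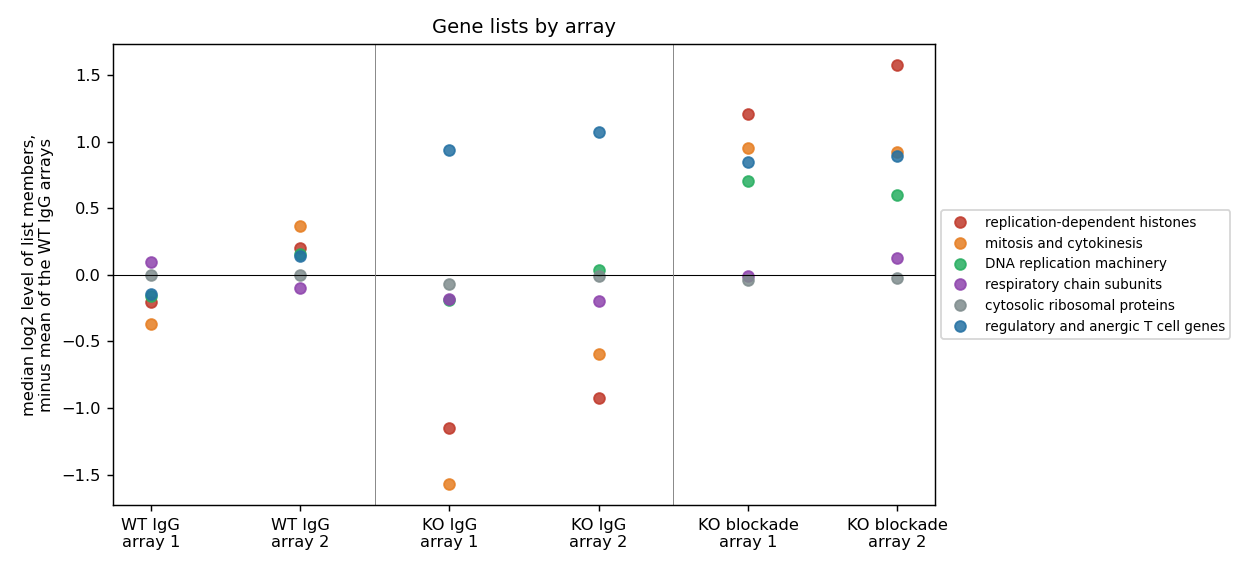
Median log2 level of the bright members of 6 gene lists on each array, minus the mean of the WT arrays. Histone and mitosis genes lie below the WT arrays on both Irf4 KO IgG arrays and above them on both blockade arrays, and mitosis genes differ between the Irf4 KO IgG arrays. Cytosolic ribosomal protein genes stay near 0 on all arrays after quantile normalisation, which fixes the distribution of levels on every array.

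Most mitochondrial genes read slightly lower than in WT cells. Of 73 bright respiratory chain subunits, 1 fell and 0 rose, 23 were lower and 0 higher at an unadjusted p under 0.05, and 62 had a negative log2 fold change, with a median of -0.22 that lay between -0.30 and -0.17 when 1 array was left out. Ndufa4, a cytochrome oxidase associated subunit, read 12.60 and 12.57 in WT, 11.84 and 11.91 in Irf4 KO IgG and 12.45 on both blockade arrays (-0.71, SE 0.11, limma adjusted p = 0.0487). Proteins of the mitochondrial ribosome had 0 of 72 members past the limma threshold, 20 lower and 0 higher at an unadjusted p under 0.05, and a median of -0.18. Of all 8582 bright genes, 0.816% fell, 12.8% were lower and 10.5% higher at that p, and 4493 had a negative log2 fold change. Cytosolic ribosomal proteins had 0 of 79 past the threshold in limma, 0 at an unadjusted p under 0.05 in either direction, and a median of 0.00. The brightness of these groups differs, and quantile normalisation fixes the distribution of levels on every array. The 0.00 of the cytosolic ribosome therefore cannot be set against the lower medians. With the median of bright probes, medians were -0.52 for respiratory chain subunits, -0.33 for the mitochondrial ribosome and -0.37 for cytosolic ribosomal proteins. With the 75th percentile they were -1.48, -1.30 and -1.33. All bright genes had medians of -0.09 and -1.05 on these scales.

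Other metabolic lists held few calls. Srm, the spermidine synthase of polyamine production, rose from 10.18 and 10.23 to 10.91 and 10.89 (0.70, SE 0.11, limma adjusted p = 0.0487; -0.36 with the 75th percentile), and with Gcat it was 1 of the 2 genes called among 23 bright members of amino acid, one-carbon and polyamine metabolism. Slc16a1, the lactate transporter MCT1, was the 1 of 24 bright members of the glycolysis and hypoxia list that rose (0.82, SE 0.12, limma adjusted p = 0.0491; -0.09 with the 75th percentile). That list's median was -0.10, with 1 member higher and 5 lower at an unadjusted p under 0.05. Cholesterol synthesis had 0 of 18 bright members past the limma threshold and a median of -0.26. At an unadjusted p under 0.05, 6 were lower and 0 higher (12.8% and 10.5% of all bright genes). Tm7sf2, a sterol reductase, came nearest (-1.12, SE 0.19, limma adjusted p = 0.0537). Fatty acid genes had 0 of 26 past the limma threshold, 2 higher and 7 lower at an unadjusted p under 0.05 and a median of -0.29, while the lipid-binding protein gene Fabp5 read 8.87 and 8.86 in WT, 9.70 and 10.18 in Irf4 KO IgG and 11.003 and 10.95 in blockade cells (1.08, SE 0.18, limma adjusted p = 0.052). Besides Glrx in the redox list (1 of 28), Ctsa, the lysosomal protective protein, fell from 14.18 and 14.24 to 13.52 and 13.39 (-0.76, SE 0.12, limma adjusted p = 0.0491), as the 1 of 32 bright lysosome and autophagy genes that passed. Sdf2l1, an ER chaperone cofactor, fell by 0.83 on the log2 scale (SE 0.13, limma adjusted p = 0.0491) as 1 of 22 ER chaperones, and the blockade arrays lay at the WT level.

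No bright member of the lists of protein synthesis and handling that follow passed the limma threshold. Ribosome biogenesis genes had 0 of 42 bright members past the limma threshold, 6 higher and 3 lower at an unadjusted p under 0.05 and a median of 0.09, with the nucleolar chaperone gene Npm1 at 0.58 (SE 0.13, limma adjusted p = 0.0904; -0.76 with the 75th percentile). Translation factors had 0 of 52 (5 higher and 5 lower at an unadjusted p under 0.05, median -0.04) and tRNA synthetases 0 of 19 (2 higher and 0 lower, median 0.06). Proteasome genes had 0 of 46 (1 higher and 7 lower, median -0.17), and cytosolic chaperones 0 of 24 (4 higher and 0 lower, median 0.16). Secretory transport genes had 0 of 37 (2 higher and 6 lower, median -0.15), glycosylation enzymes 0 of 22 (1 higher and 2 lower, median -0.15) and splicing factors 0 of 43 (1 higher and 3 lower, median -0.01). Of all bright genes, 10.5% were higher and 12.8% lower at that p.

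**Figure D5:**
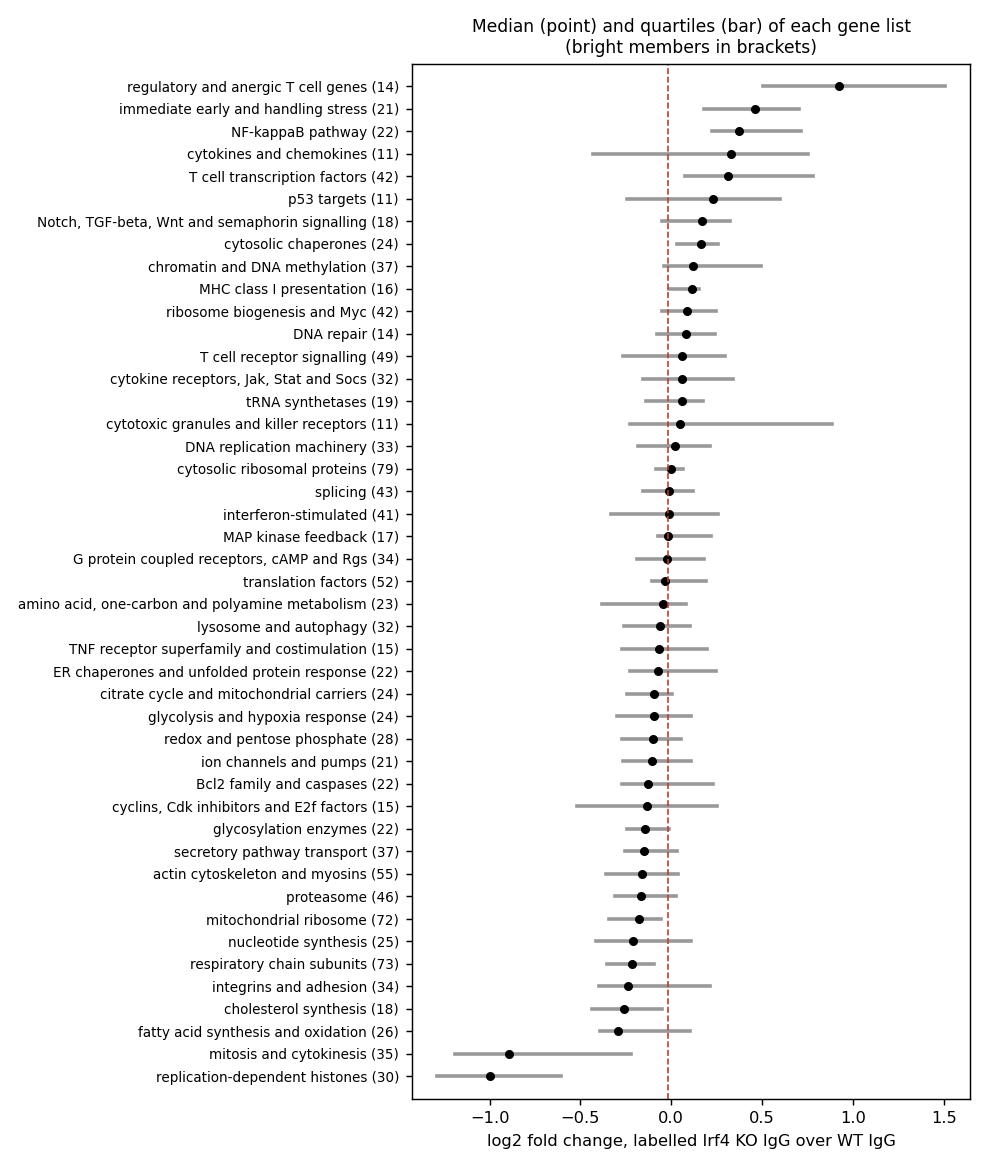
Median (point) and quartiles (bar) of the change from WT IgG to Irf4 KO IgG, in log2 units, for each gene list with at least 10 bright members, with the number of members in brackets. The dashed line is the median of all bright genes, -0.02. Histones (-0.9954) and mitosis genes (-0.89) are lowest, and regulatory and anergic T cell genes (0.93) highest. The last list was drawn up with members known to be higher, and its 11 members over 8 in WT cells had a median of 0.70.

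Of 7 bright MHC class II genes 3 rose and 0 fell. H2-Ab1 and H2-Eb1 were under the minimum of 8 in WT and blockade cells and passed it only through the Irf4 KO IgG arrays, so the count is a description. H2-Ab1 read 7.51 and 6.85 in WT, 10.61 and 12.30 on Irf4 KO IgG arrays 1 and 2, and 6.72 and 7.34 in blockade cells (4.27, SE 0.58, limma adjusted p = 0.041). H2-Eb1 read 7.14 and 6.78, then 10.34 and 12.24, then 5.99 and 6.81 (4.33, SE 0.63, limma adjusted p = 0.0471). These encode class II chains that antigen-presenting cells display. The invariant chain gene Cd74 read 7.68 and 7.35, then 10.32 and 12.09, then 7.69 and 8.51 and did not pass (log2 fold change 3.69). Array 2 was above array 1 by 1.70 for H2-Ab1 and 1.90 for H2-Eb1, where the median such difference over the 98 risen genes was 0.06. Markers of B cells moved the same way. Cd79b, a chain of the B cell receptor, had intensities of 43.7 and 51.8 in WT, 498 and 2690 in Irf4 KO IgG and 267 and 275 in blockade cells. Ms4a1, which encodes CD20, read 4.28 and 9.34, then 108 and 745, then 5.46 and 31.0. Of the 16 B cell markers 14 and 16 were well above background on Irf4 KO IgG arrays 1 and 2, against 4 and 5 on the WT arrays. The part of other cells in the rise of the class II genes was not tested. H2-Ob, a modulator of class II loading in B cells, read 8.35 and 7.68 in WT, 9.59 and 9.41 in Irf4 KO IgG and 9.73 and 9.61 in blockade cells (1.49, SE 0.23, limma adjusted p = 0.0491), so it was as high on the blockade arrays.

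Of the other risen genes, only Penk (1.22) differed by over 1 log2 unit between the Irf4 KO IgG arrays. In normalised log2 units this difference was 0.35 for Eomes, 0.10 for Spry1, 0.06 for Ikzf2 and 0.21 for Fam160a1. In unscaled intensity, array 2 was above array 1 by 1.91-fold for Eomes. That ratio was 5.01 for B cell markers without Pou2af1 and 33.9 for erythroid markers. It was 1.71 for the NK cell gene Ncr1 and 1.50 for monocyte and macrophage markers. The part of other cells in these rises was not tested. MHC class I presentation genes had 0 of 16 bright members past the limma threshold, 0 at an unadjusted p under 0.05, and a median of 0.11. Eomes also stands in the list of 8 CD8 T and NK cell markers, whose intensities summed to 872 and 1047 in WT, 1687 and 2914 in Irf4 KO IgG and 1117 and 1378 in blockade cells. Nkg7, a cytotoxic granule membrane protein of such cells, rose from 11.83 and 11.81 to 13.39 and 13.43, with blockade arrays at 13.85 and 13.43 (1.58, SE 0.16, limma adjusted p = 0.0223). Ncr1, a receptor that defines NK cells, had intensities of 18.6 and 8.60 in WT, 155 and 264 in Irf4 KO IgG and 5.37 and 4.33 in blockade cells, and the part of NK cells in the rises of Nkg7 and Eomes was not tested. Cytotoxic granule and killer receptor genes had 2 of 11 bright members risen, Nkg7 and Crtam, and 0 fallen, with a median of 0.05. Crtam was under the minimum of 8 in WT cells and passed it through the other arrays. Of the 9 members over 8 in WT cells, 1 rose and the median was -0.03.

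Bcl2, the inhibitor of mitochondrial apoptosis, rose from 8.47 and 8.14 to 9.45 and 9.62 (1.23, SE 0.19, limma adjusted p = 0.0491), as the 1 of 22 bright members of its list that rose. The blockade arrays read 9.15 and 8.79. Sesn1, a p53 target that restrains mTORC1, read 10.78 and 10.80 in WT, 12.34 and 12.07 in Irf4 KO IgG and 12.09 and 12.38 in blockade cells (1.42, SE 0.16, limma adjusted p = 0.0249), as 1 of 11 bright p53 targets. Gpr18, a lipid-sensing receptor of lymphocytes, rose by 0.97 (SE 0.12, limma adjusted p = 0.0293). Interferon-stimulated genes had 0 of 41 bright members past the limma threshold, 6 higher and 2 lower at an unadjusted p under 0.05, and a median of -0.01. Oasl1 (1.69, limma adjusted p = 0.0644) and Gbp7 (1.20, limma adjusted p = 0.0698) came nearest. The list's median depended on single arrays, at 0.35 and -0.40 when WT array 1 or 2 was left out. The median difference of the members was -0.42 between the arrays numbered 1 and 0.41 between those numbered 2. Chromatin regulators had 0 of 37 past the limma threshold, 4 higher and 2 lower at an unadjusted p under 0.05, and a median of 0.12, with the DNA methyltransferase gene Dnmt3a at 0.82 (SE 0.16, limma adjusted p = 0.0664; -0.02 with the 75th percentile).

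Because IRF4 binds with AP-1 proteins or at repeats of its own core, the promoters of the changed genes were searched, and 4 that hold a match are shown. The windows run from 250 bases before to 50 after the annotated start (RefSeq, GRCm38.p6), and 69 risen and 39 fallen genes had one. Only bases before the start are printed, 5′ to 3′ on the gene's strand, with the match in capitals. The repeat GAAANNGAAA lies 154 bases before the start of Eomes (chr9:118477990-118478089, + strand), and the AP-1 letters TGANTCA lie 15 bases before that of Tnfrsf9 (chr4:150927939-150927998, + strand), 131 before that of Adam19 (chr11:46055808-46055904, + strand) and 99 before that of Glrx (chr13:75839742-75839838, + strand).
Eomes: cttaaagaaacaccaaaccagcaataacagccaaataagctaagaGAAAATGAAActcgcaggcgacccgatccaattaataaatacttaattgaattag
Tnfrsf9: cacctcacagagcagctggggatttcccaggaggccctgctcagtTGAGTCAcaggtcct
Adam19: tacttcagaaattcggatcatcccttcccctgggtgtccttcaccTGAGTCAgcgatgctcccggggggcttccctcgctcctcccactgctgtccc
Glrx: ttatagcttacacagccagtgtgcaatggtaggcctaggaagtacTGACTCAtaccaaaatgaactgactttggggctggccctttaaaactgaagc

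On both strands, TGANTCA occurred in 6 of 69 risen genes (8.70%) and 3 of 39 fallen genes (7.69%), against 5.59% of 5453 bright genes and 8.97% of all 27025 genes in the table. GAAANNGAAA occurred in 2 of 69 (Eomes and Gpr18) and 1 of 39 (Flt3l), against 3.92% of bright and 3.99% of all genes. The Ets and IRF element GGAANNGAAA occurred in 1 of 69 (Bach2) and 0 of 39, against 3.06% of bright genes. The composite elements TTTCNNNNTGANTCA and GAAATGANTCA, which contain the AP-1 letters, occurred in 0 of the changed genes and in 4 bright genes each. A match is a string of letters in a short window, and these shares say nothing about binding.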

How the data were processed

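RNA of 6 sorted cell samples was hybridised to single-colour Agilent arrays. The scanner files, as deposited, give each spot's processed signal as a linear intensity, background-subtracted and detrended within the array per the file headers, with no scaling between arrays. Per the file headers the spots were read with Feature Extraction 11.0.1.1; the version in the submitters' processing notes is 9.1. The file headers name build mm9, so no probe positions are given. The deposited value table repeats this intensity divided by 1 number per array, within a relative tolerance of 0.001.

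Spots marked unusable were dropped, which left 55371 of 56605 probes, and log2 intensities were computed here from the deposited values and averaged per probe. Probes with a mean log2 of at least 8 over 6 arrays (10225) were quantile-normalised, and the probe with the highest mean was kept per gene. Symbols came from RefSeq accessions (58.3% of probes). All 3 groups entered 1 fit in limma 3.58.1 (R 4.3.3, lmFit, then eBayes) with 3 residual degrees of freedom, and p-values were adjusted over 8582 genes by Benjamini-Hochberg. The same fit was also run on data simulated with known changes, with means and spreads taken from these arrays. All arrays were on 1 slide, with array rows as a possible batch. The labels do not say whether arrays of the same number are paired across groups. Between arrays of the same number, deviations from the group means correlated at 0.01 for WT IgG and Irf4 KO IgG. They correlated at -0.20 for WT IgG and blockade, and 0.03 for Irf4 KO IgG and blockade. These values cannot decide on a pairing, since array 1 lay in slide row 2 for WT IgG and Irf4 KO IgG but in row 1 for blockade.

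The rule for named genes was Irf4, the 15 highest and 15 lowest fold changes with a symbol among genes that passed without overlap, up to 4 passing members of each of 48 function lists (or the 2 nearest by p), and passing or brightest markers of 10 cell types. Other genes are given as examples chosen after their values were seen. The members and lists were chosen with earlier results of these data known. A few genes are not reported here, though the counts include them. Alternatives were other scalings, minimums, background corrections, probe rules, blocks and left-out arrays.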

Additional observations from a re-analysis of the deposited data

How the results depend on the processing

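All 168 genes that passed kept their direction in each alternative that tested them, except with the 75th percentile of all probes, where 78 of 98 risen genes did and 3 passed as fallen. With 1 array left out this was fixed in advance, because the groups do not overlap for these genes. The blocks, the 4 arrays on their own and the variance trend used the same normalised levels, so direction was fixed there too. The counts moved more than the directions. The genes higher and lower, 98 and 70 as reported, were 62 and 7527 with the 75th percentile, where the median of all bright genes was -1.05, 154 and 144 with the median of bright probes, 53 and 37 with a minimum of 9, 3390 and 3705 with no minimum, 55 and 36 with flagged spots kept, and 48 and 31 with the slide row as a block. With the replicate number as a block, a pairing that the labels do not give, they were 17 and 6. With the 4 arrays compared on their own, at 2 residual degrees of freedom, limma called 6 higher and 0 lower, with 732 and 840 at an unadjusted p under 0.05. Leaving out 1 array gave 6 to 43 higher and 4 to 52 lower. The other alternatives (normexp, cyclic loess, a minimum of 7, the mean of probes, a variance trend, the value table) gave 87 to 124 higher and 53 to 84 lower.

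With the 75th percentile these genes of the rule turned negative: Cd5 (-0.97), Cars (-0.46), Gart (-0.40), Pold2 (-0.57), Rpa2 (-0.31), Srm (-0.36), Slc16a1 (-0.086), Pdha1 (-0.54), Npm1 (-0.76), Vars (-0.12), Psmg2 (-0.33), Cct3 (-0.54), Hspa9 (-0.47), Acsl5 (-0.56), Fmnl1 (-0.13), Il4ra (-0.31), Jak2 (-0.24), Cd200 (-0.11), Txk (-0.29), Nfkbia (-0.39), Nfkb2 (-0.33), Nlrc5 (-0.76), Psme1 (-1.11), Dnmt3a (-0.018), Sf3b3 (-0.79) and Xrcc1 (-0.42). With the median of bright probes Cd5 was -0.012 and Psme1 -0.14. Signals near background limit what can be said of genes dim in WT cells, and 2 arrays a group limit all calls.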

Other observations

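Further genes with a symbol passed outside the gene lists and the rule for named genes, and those given here were chosen after their values were seen. Among the risen ones, Itm2a, a membrane protein of activated and follicular helper T cells, read 10.51 and 10.01 in WT, 12.32 and 12.09 in Irf4 KO IgG and 12.12 and 12.31 in blockade cells (1.94 in log2 units, SE 0.20, limma adjusted p = 0.0223). Ecm1, a secreted matrix protein, rose by 1.68 (SE 0.16, limma adjusted p = 0.0194), with levels of 9.85 and 9.81, then 11.68 and 11.33, then 11.75 and 11.94. Fut7, a fucosyltransferase, rose from 7.81 and 7.45 to 9.16 and 9.80 (1.85, SE 0.24, limma adjusted p = 0.0375), and Nod1, a sensor of bacterial peptidoglycan, from 10.30 and 10.21 to 11.77 on both arrays (1.51, SE 0.12, limma adjusted p = 0.0143). The Ets-family repressor gene Erf (1.53, SE 0.15) and Smad1, a mediator of BMP signalling (1.14, SE 0.15), rose at limma adjusted p of 0.0194 and 0.0375.

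Among the fallen ones, Hsd11b1, which regenerates active glucocorticoid, read 12.55 and 12.47 in WT, 11.24 and 11.55 in Irf4 KO IgG and 11.63 and 11.64 in blockade cells (-1.11, SE 0.14, limma adjusted p = 0.0332). Ripk3, the kinase of necroptosis, fell from 11.02 and 11.10 to 10.18 and 10.09 (-0.92, SE 0.11, limma adjusted p = 0.0293), with blockade arrays at 10.86 and 10.82. Lime1, a membrane adaptor of T cell receptor signalling (-0.90, SE 0.11), and Flt3l, the ligand of the dendritic cell growth factor receptor Flt3 (-0.92, SE 0.14), fell at limma adjusted p of 0.0338 and 0.0487.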
